A study of Homo sapiens with 6 samples.

Results

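PARP9, DTX3L, PARP14, PARP10, PARP12 and ZC3HAV1 are the interferon-linked members of the poly(ADP-ribose) polymerase (PARP) family together with DTX3L, the E3 ubiquitin ligase that pairs with PARP9. They were chosen by gene symbol with earlier results of these data known, so shares of members set beside all genes are descriptions. All 6 were found among the 16306 genes of the deposited RNA-seq table and among the 12620 genes with enough counts to be tested. The RNA came from PC9 cells, an established line grown from a human lung adenocarcinoma that carries an EGFR mutation. A group of 3 samples carried a control shRNA (sh-NC) and a group of 3 carried an shRNA against RBM10 (shRBM10), an RNA-binding protein that regulates splicing. No further drug or allele is given for either group. Neither the labels nor the paper names which RBM10 shRNA was sequenced, so the shRBM10 libraries may not share 1 shRNA. The count columns of all 3 shRBM10 libraries begin with PC9SH1, and what this tag stands for is not stated. Only the column of library A matches a sample title, so libraries B and C cannot be tied to a replicate number. The labels number the samples as replicate biosamples and the methods speak in general of experiments done independently 3 times, but neither ties these libraries to separate cultures, so the p-values measure the spread between these samples.

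PARP enzymes move ADP-ribose from NAD+ onto proteins and nucleic acids, as long chains or as single units, and macrodomain proteins bind or remove it. PARP9 and PARP14 carry macrodomains. The PARP9-DTX3L pair ubiquitinates histone and viral proteins, PARP14 and PARP10 are mono-ADP-ribosyltransferases, PARP12 combines a CCCH zinc-finger region with mono-ADP-ribosyltransferase activity, and ZC3HAV1 (ZAP, also PARP13) has lost catalytic activity and binds CpG-rich viral RNA for decay. Type I and type III interferon raise these genes in many cell types. A transcription factor complex of this response holds STAT2 and IRF9. It binds the interferon-stimulated response element (ISRE) found in many interferon-responsive promoters.

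The promoters are shown because the presence of this element and the direction of the members can be set side by side. The ISRE was searched as GAAA, any 2 bases and GAAA again, on both strands in RefSeq promoter windows of GRCh38.p14, from 250 bases before to 50 bases after each transcription start, and 1255 of 35116 windows (3.57%) held it. Windows were found for 5 of the 6 members: DTX3L, PARP9, PARP14, PARP12 and ZC3HAV1. The stretches below run 5′ to 3′ along each gene's strand from 100 bases before the start through the first 30 bases, and capitals mark the ISRE letters.
DTX3L, chr3:122564238-122564367, plus strand: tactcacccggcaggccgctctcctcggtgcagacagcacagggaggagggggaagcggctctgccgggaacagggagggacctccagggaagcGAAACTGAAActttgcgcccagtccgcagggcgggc
PARP14, chr3:122680739-122680868, plus strand: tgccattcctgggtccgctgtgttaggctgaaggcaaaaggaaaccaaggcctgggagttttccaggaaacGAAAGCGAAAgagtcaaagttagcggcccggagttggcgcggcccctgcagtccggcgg
PARP12, chr7:140062922-140063051, minus strand: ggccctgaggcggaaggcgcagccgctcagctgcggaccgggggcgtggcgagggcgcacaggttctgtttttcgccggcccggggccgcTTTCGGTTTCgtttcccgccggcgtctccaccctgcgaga
ZC3HAV1, chr7:139109691-139109820, minus strand: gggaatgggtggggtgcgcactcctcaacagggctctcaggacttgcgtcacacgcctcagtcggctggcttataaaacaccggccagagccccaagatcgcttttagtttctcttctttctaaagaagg
In DTX3L the match ran from position -6 to position 3 around the start. PARP9 starts 38 bases away on the opposite strand, and its window held the same 10 bases at -41 to -32, so PARP9 and DTX3L share this 1 element. A second annotated PARP9 start had no match in its window. PARP14 held a match at -29 to -20 and PARP12 at -10 to -1, while no match lay in the ZC3HAV1 window. These are matches of letters and say nothing of what was bound.

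The total count lay between 16606401 and 18864241 per library. RBM10, the targeted gene (chrX:47144869-47186813, GRCh38), had 1361 ± 155 TMM-normalized counts in the sh-NC libraries and 575 ± 85.4 in shRBM10 (SD, n = 3), a log2 fold change of -1.24 (SE 0.23, edgeR adjusted p = 0.10). Its lowest sh-NC library, at 1183, lay above its highest shRBM10 library, at 672. All 5 epithelial markers examined (EPCAM, CDH1, KRT8, KRT18, KRT19) were above 1 CPM (count scaled to the normalized library size) in every library, while none of the 4 lung adenocarcinoma lineage markers (NKX2-1, NAPSA, SFTPB, SFTPC) was. Retinas are mentioned in the deposited protocol, and the retinal marker CRX reached at most 0.180 CPM. The leukocyte markers summed to 103 to 183 CPM in sh-NC and 99.6 to 129 CPM in shRBM10, nearly all of it CD68, a lysosomal protein gene that epithelial lines also express, while PTPRC reached at most 0.365 CPM and CD14 at most 1.52 CPM. Of the smaller marker lists, the endothelial sum, mostly CDH5, was 5.44 to 10.2 CPM in sh-NC and 2.68 to 3.75 CPM in shRBM10, and the fibroblast sum, mostly COL1A1, was 2.24 to 5.58 and 5.42 to 9.72 CPM. Their part in the results was not tested. In these bulk libraries, a change in the number of cells that express a gene and a change in RNA per cell cannot be told apart.

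Library behaviour touches these genes directly. Against the mean of sh-NC replicates 1 and 3, the median log2 level of sh-NC replicate 2 ran from 0.63 for transcripts up to 2000 bases down to -1.20 for those over 7000 bases. In shRBM10 library A the median ran from 1.01 at a transcript GC content of 40% or less to -0.53 above 60%, and in library B from 0.72 to -0.37. In library C it stayed between -0.017 and 0.015 over the same GC classes. Libraries A and B also leaned towards long transcripts, from -0.098 and 0.055 up to 2000 bases to 0.62 and 0.36 over 7000 bases, opposite to sh-NC replicate 2. The members differ in both properties. PARP9, PARP14, DTX3L and ZC3HAV1 had a transcript GC content of 43.5%, 43.9%, 44.2% and 47.8%, against 53.8% for PARP12 and 66.7% for PARP10. PARP14 (7915 bases), DTX3L (5868 bases) and ZC3HAV1 (5141 bases) have the longest transcripts, and those of PARP9, PARP12 and PARP10 are 3163 to 3450.5 bases long (medians over annotated transcripts). The members are therefore given below with all 6 libraries, without sh-NC replicate 2 and with the GC and length trends removed.

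Of the 6 members, 4 were higher in every shRBM10 library than in any sh-NC library, namely PARP9, DTX3L, PARP14 and ZC3HAV1, where 13.8% of all genes tested were. None of the 6 was called at an edgeR adjusted p under 0.05 with an absolute log2 fold change over 1, a rule that called 2 of 12620 genes (0.0158%). At an unadjusted p under 0.05 with a log2 fold change over 1, PARP9, DTX3L and PARP14 passed, where 10.1% of all genes did. DESeq2, a second count test, called PARP9 and PARP14 higher at an adjusted p under 0.05 with a log2 fold change over 1. At the same limits it called 3.33% of 12493 genes higher. The median log2 fold change over the 6 members was 0.97, beside 0.027 over all genes tested. It was 0.55 without sh-NC replicate 2.

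**Figure D1:**
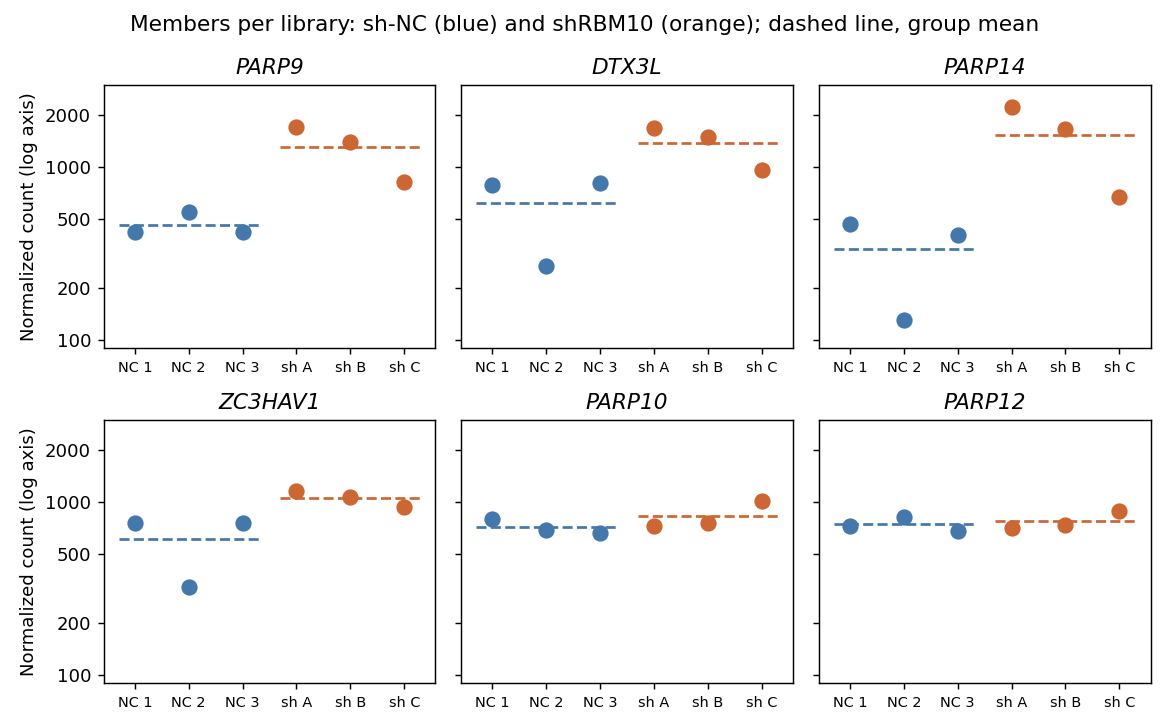
TMM-normalized counts (log axis) of the 6 members in each library, with sh-NC replicates 1 to 3 in blue, shRBM10 libraries A to C in orange and dashed lines at the group means. PARP9, DTX3L, PARP14 and ZC3HAV1 sit higher in every shRBM10 library, highest in A and lowest in C, sh-NC replicate 2 is low in DTX3L, PARP14 and ZC3HAV1, and the groups overlap in PARP10 and PARP12.

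PARP9 (Entrez 83666, chr3:122527924-122564577, minus strand, GRCh38) is a macrodomain protein that recognizes ADP-ribose and brings DTX3L to its targets. Its normalized count was 424 in sh-NC replicate 1, 553 in replicate 2 and 424 in replicate 3, and it was 1724 in shRBM10 library A, 1395 in library B and 823 in library C. The lowest shRBM10 library was above the highest sh-NC library, and the sh-NC libraries differed little among themselves. The means were 467 ± 74.7 and 1314 ± 456 (SD, n = 3), a log2 fold change of 1.49 (SE 0.30, 95% interval 0.82 to 2.17, edgeR adjusted p = 0.117). The change was 1.54 on the log2 scale when sh-NC replicate 2 was left out. It was 1.03 when the GC and length trends of each library were removed (edgeR adjusted p = 0.0408). In that fit 233 of 12620 genes (1.85%) had an adjusted p under 0.05 with an absolute log2 fold change over 1. The share of all genes under that adjusted p alone is not given here. DESeq2 gave 1.46 with an adjusted p of 0.00177. In library C, whose levels show no GC trend, PARP9 lay 0.95 above the mean of sh-NC replicates 1 and 3 on the log2 scale. In libraries A and B it lay 1.10 and 1.08 above the median of all genes in its GC class. In the control library sh-NC replicate 2, PARP9 also lay above the median of its GC class, by 0.60.

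DTX3L (Entrez 151636, chr3:122564238-122575203, plus strand) is the ubiquitin ligase of the pair. Its normalized counts were 787, 270 and 813 in sh-NC and 1680, 1495 and 969 in shRBM10. Replicate 2 stood far below the other sh-NC libraries, with 197 counts before normalization, and library C stood closest to sh-NC. The means were 623 ± 306 and 1381 ± 369 (SD, n = 3), a log2 fold change of 1.14 (SE 0.40, 95% interval 0.25 to 2.04, edgeR adjusted p = 0.169). The log2 fold change was 0.70 without sh-NC replicate 2 and 0.68 with the GC and length trends removed, both under the limit of 1. In libraries A, B and C DTX3L lay 0.15, 0.27 and 0.28 above the median of its GC class, less than PARP9 or PARP14 in the same libraries.

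PARP14 (Entrez 54625, chr3:122680618-122730840, plus strand), a large mono-ADP-ribosyltransferase, showed the largest difference of the 6. It had 473, 130 and 406 normalized counts in the sh-NC libraries and 2246, 1674 and 670 in shRBM10. Its groups did not overlap, but the shRBM10 libraries spread more than for any other member. The means were 337 ± 182 and 1530 ± 798 (SD, n = 3), a log2 fold change of 2.18 (SE 0.53, 95% interval 1.00 to 3.36, edgeR adjusted p = 0.137). It was 1.71 without sh-NC replicate 2, where PARP14 was listed with 95 counts, and 1.58 with the GC and length trends removed (edgeR adjusted p = 0.0408). DESeq2 gave 2.14 with an adjusted p of 0.00205. In library C PARP14 was 0.61 above sh-NC replicates 1 and 3 on the log2 scale, against 2.35 in library A and 1.93 in library B.

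ZC3HAV1 (Entrez 56829, chr7:139043520-139109719, minus strand) had 761, 325 and 753 normalized counts in the sh-NC libraries and 1166, 1069 and 943 in shRBM10. The groups did not overlap, with replicate 2 again the lowest. The means were 613 ± 250 and 1060 ± 112 (SD, n = 3), a log2 fold change of 0.79 (SE 0.33, 95% interval 0.058 to 1.52, edgeR adjusted p = 0.190). It was 0.40 without sh-NC replicate 2 and 0.62 with the GC and length trends removed. For PARP9, DTX3L, PARP14 and ZC3HAV1 alike, the two-sided exact permutation p over the 6 libraries was 0.1, the smallest that 3 against 3 allows.

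PARP10 (Entrez 84875, chr8:143977153-144012772, minus strand) had 799, 686 and 666 normalized counts in the sh-NC libraries and 724, 762 and 1016 in shRBM10. The groups overlapped, and only library C lay above all the sh-NC libraries. The log2 fold change was 0.22 (SE 0.24, 95% interval -0.31 to 0.75, edgeR adjusted p = 0.558). PARP12 (Entrez 64761, chr7:140023744-140063721, minus strand), whose promoter holds the ISRE letters shown above, had 729, 824 and 680 in sh-NC and 707, 741 and 890 in shRBM10. Its log2 fold change was 0.067 (SE 0.22, 95% interval -0.43 to 0.57, edgeR adjusted p = 0.862). Both lie in GC classes whose median was below 0 in libraries A and B. With the GC and length trends removed the log2 fold change was 0.59 for PARP10 (edgeR adjusted p = 0.0499) and 0.29 for PARP12, both under the limit of 1. All 6 members then stood higher in every shRBM10 library, where 23.0% of all genes tested did, and the median of all genes was 0.12 in place of 0.027. In library C the members lay 0.28 (DTX3L) to 0.95 (PARP9) above the mean of sh-NC replicates 1 and 3 on the log2 scale. The GC class medians of all genes lay between -0.017 and 0.015 in that library, and the share of all genes above 0 was not counted.

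**Figure D2:**
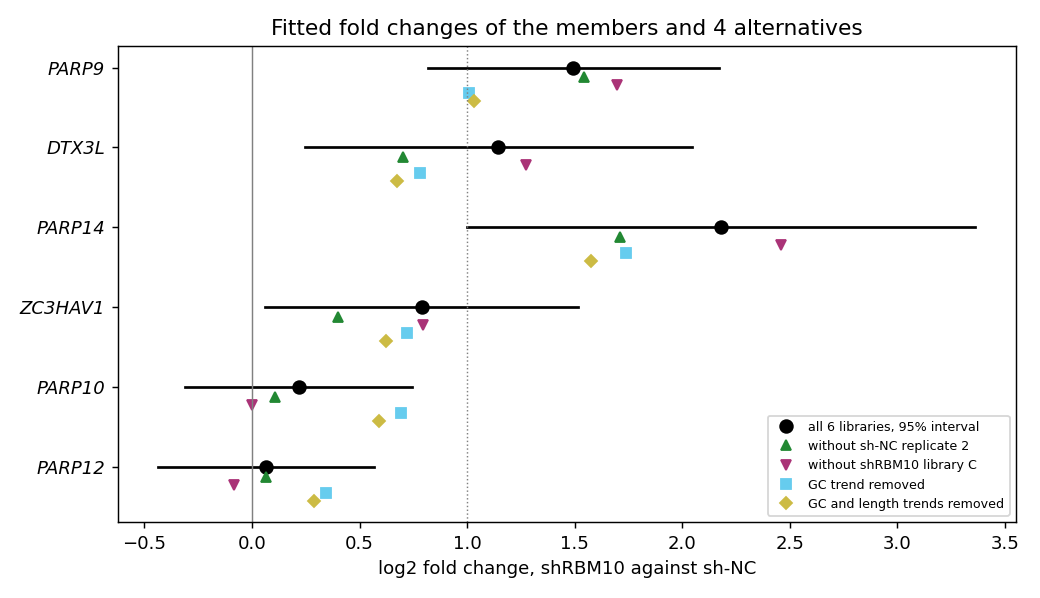
Log2 fold change (shRBM10 against sh-NC) of the 6 members, with black points and 95% intervals for all 6 libraries and coloured symbols for 4 alternatives. PARP9 and PARP14 stay above 1 throughout, DTX3L and ZC3HAV1 shrink without sh-NC replicate 2, and PARP10 and PARP12 move up when GC trends are removed.

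**Figure D3:**
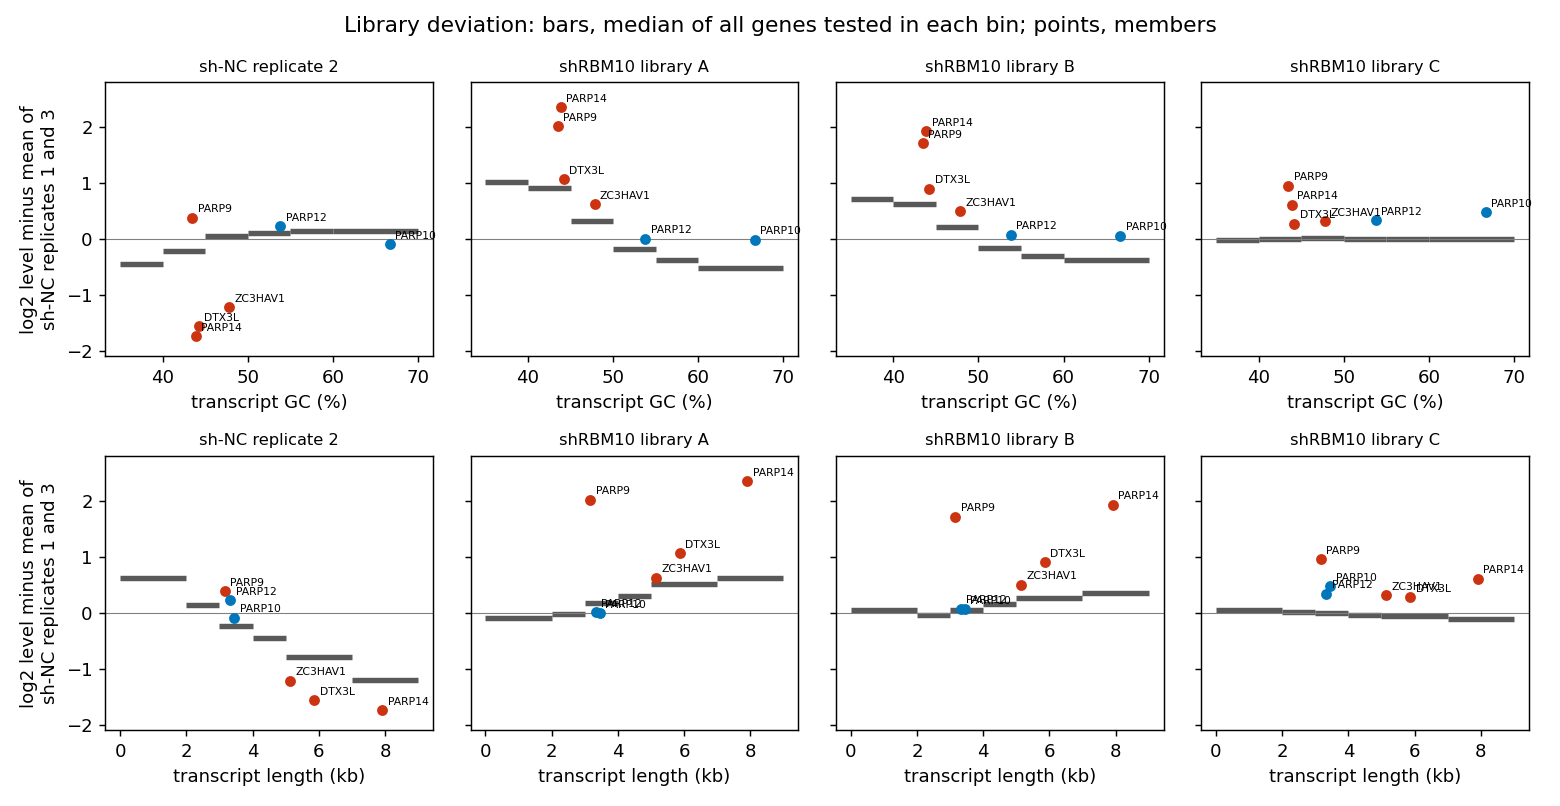
Log2 level of each library minus the mean of sh-NC replicates 1 and 3, against transcript GC content (upper panels, %) and transcript length (lower panels, kb), with bars at the median of all genes tested per class, open-ended outer classes drawn to an arbitrary width, and points for the 6 members. PARP9, PARP14, DTX3L and ZC3HAV1 lie above the bars in all 3 shRBM10 libraries, DTX3L and ZC3HAV1 by less than PARP9 and PARP14. In sh-NC replicate 2, DTX3L, PARP14 and ZC3HAV1 lie below the bars, while PARP9 and PARP12 lie above them.

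Per transcript length, the order of the levels changed between the groups. In sh-NC, PARP12 (12.2 CPM per kb) and PARP10 (11.3 CPM per kb) were the highest, followed by PARP9 (8.03), ZC3HAV1 (6.49), DTX3L (5.78) and PARP14 (2.31). In shRBM10, PARP9 was the highest at 22.6 CPM per kb, followed by PARP10 (13.2), DTX3L (12.8), PARP12 (12.7), ZC3HAV1 (11.2) and PARP14 (10.5). In shRBM10 the ranges of neighbours in this order overlapped throughout. In sh-NC only PARP10 and PARP9 did not overlap as neighbours, and replicate 2 alone took ZC3HAV1 down to 3.44 and DTX3L down to 2.50 CPM per kb. In sh-NC replicate 2 PARP14 stood at 0.894 CPM per kb, and in library A at 15.4 CPM per kb.

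Within a library, ratios between members do not depend on its scaling. The log2 ratio of PARP9 to PARP12 counts was -0.78, -0.58 and -0.68 in sh-NC and 1.29, 0.91 and -0.11 in shRBM10. It was higher in all 3 shRBM10 libraries, by 1.37 on average (exact permutation p = 0.1) and by 1.43 without sh-NC replicate 2. The members of this pair differ in GC content, and with the GC and length trends removed their fitted fold changes were 0.74 apart on the log2 scale. The PARP14 to PARP12 log2 ratio was -0.62, -2.66 and -0.74 in sh-NC and 1.67, 1.18 and -0.41 in shRBM10, with library C close to sh-NC replicate 1. It was higher by 2.15 on average without overlap (exact permutation p = 0.1) and by 1.49 without replicate 2. Between the fitted fold changes with those trends removed, the difference was 1.29. For the paired genes PARP9 and DTX3L, the log2 ratio was -0.89, 1.04 and -0.94 in the sh-NC libraries and 0.037, -0.10 and -0.24 in shRBM10. The ratio in replicate 2 stood apart from all the others, and the groups differed by 0.17 (exact permutation p = 1.0) with it and by 0.82 without it. With the GC and length trends removed, the fitted fold changes of PARP9 and DTX3L were 0.35 apart on the log2 scale. The PARP10 to PARP12 log2 ratio lay between -0.26 and 0.19 in every library.

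The members' profiles over the 6 libraries were also compared. With each gene's log2 CPM centred on its mean, the root mean square difference between PARP10 and PARP12 was 0.14, and PARP12 ranked 179 of 12619 genes by nearness to PARP10. DTX3L and ZC3HAV1 differed by 0.27, which put ZC3HAV1 at rank 579 for DTX3L. PARP9 and DTX3L differed by 0.66, and DTX3L ranked 3314 for PARP9. From ZC3HAV1 PARP9 differed by 0.64, from PARP10 by 0.79 and from PARP12 by 0.80. PARP14 was the member farthest from PARP9, at 0.83. The 5 genes nearest to PARP9 were ARL15 (0.096), GCNA (0.099), GRAMD1C (0.13), ZNF114 (0.15) and SESN1 (0.16). The 5 genes nearest to PARP14, named after their values were seen, were DDX60 (0.14), ATP7A (0.14), SYTL2 (0.16), HEATR5B (0.18) and IFIH1 (0.19). These are descriptions over 6 libraries that share the library effects given above.

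The chromosome 3 members lie side by side in 202917 bases, in the order PARP9, DTX3L, PARP15, PARP14, and 11 tested genes lie in this span or within 200000 bases of it. The neighbours were chosen for description after the members' values were seen. PARP15, a mono-ADP-ribosyltransferase inside the span, had 38.1, 26.0 and 29.8 normalized counts in the sh-NC libraries and 170, 48.9 and 38.4 in shRBM10. Library C barely cleared sh-NC replicate 1, and library A held most of the difference, with a log2 fold change of 1.44 (SE 0.55, edgeR adjusted p = 0.175). Outside the span, the next tested gene beside PARP9 was KPNA1, an importin of the nuclear import machinery. It had a log2 fold change of 0.67 without overlap (edgeR adjusted p = 0.179), which was 0.11 with GC and length trends removed. The next one beside PARP14, HSPBAP1, had 0.20 with overlap (edgeR adjusted p = 0.721). Further out, WDR5B had 0.97 (edgeR adjusted p = 0.175) and FAM162A 0.51 (edgeR adjusted p = 0.292), both with overlap. CSTA had -1.08 (edgeR adjusted p = 0.194) and MIX23 -0.45 (edgeR adjusted p = 0.291), both lower in every shRBM10 library. SLC49A4 had -0.17 with overlap (edgeR adjusted p = 0.631).

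DTX3L has 1 transcript in the deposited transcript table, so its usage could not be tested. Transcript usage, the shift of a gene's transcripts against each other, was tested for the other 5 members, and PARP9 passed at an adjusted Simes p of 0.00126 (edgeR diffSpliceDGE), where 3.4% of 8348 genes did. Its 1 transcript below an adjusted p of 0.05 was XM_005247820, listed at 0 in every sh-NC library and at 154, 88.0 and 28.2 estimated counts in shRBM10 libraries A, B and C. With no sh-NC counts, it entered the test through the shRBM10 group alone, and only a rise could be found. The pass is therefore a description and no evidence of a shift. PARP9 has 21 transcripts in the table, and most of their counts are estimates of how shared reads divide, so this share is uncertain. With only transcripts of at least 10 counts in every library, that transcript was no longer tested and no member passed. The adjusted p was 0.509 for ZC3HAV1, and 1.00 for PARP14, PARP10 and PARP12 (edgeR).

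ZC3HAV1 is known for a long form that keeps the PARP-like domain and a short form that lacks it. The long transcript NM_020119 (902 residues, 7100 bases) had 472, 0 and 256 normalized estimated counts in the sh-NC libraries and 917, 797 and 626 in shRBM10. The short transcript NM_024625 (699 residues, 3182 bases) had 209, 216 and 258 in the sh-NC libraries and 158, 180 and 236 in shRBM10. The long transcript was higher in every shRBM10 library, while the short transcript overlapped between the groups. Another transcript, NM_001363491, could not be matched to a form and had 80.1, 109 and 239 against 91.0, 91.7 and 80.4. The long transcript's share of ZC3HAV1 counts was 62.0%, 0% and 34.0% in the sh-NC libraries and 78.6%, 74.6% and 66.4% in shRBM10 (means 32.0% ± 31.0 and 73.2% ± 6.23, SD, n = 3, exact permutation p = 0.1). The Wilson 95% interval of the library C share, 63.4% to 69.3%, overlapped that of sh-NC replicate 1, 58.6% to 65.2%, and these intervals cover counting error only. The 0% of sh-NC replicate 2 has a Wilson upper bound of 1.60%, but a value of 0 in an estimated count can be a failed estimate, and that library is the one low in long transcripts, while libraries A and B lean towards them. The difference of 41.2 percentage points was 25.2 without that library and 24.2 with NM_001363491 counted as long, an alternative chosen after seeing the data.

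**Figure D4:**
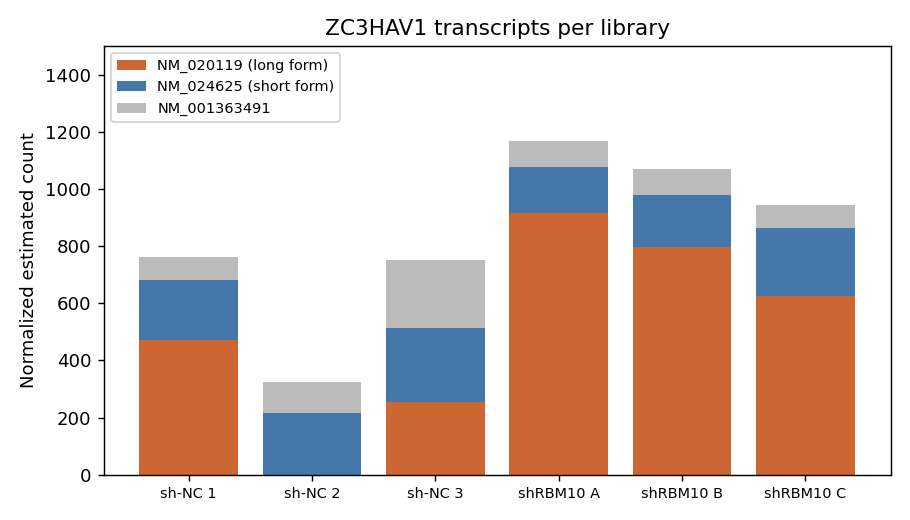
Normalized estimated counts of the 3 ZC3HAV1 transcripts, stacked, in each library, with the long form in orange, the short form in blue and the unmatched transcript in grey. The orange part is 0 in sh-NC replicate 2 and runs from 626 to 917 in the shRBM10 libraries, while the blue part stays between 158 and 258 in all 6 libraries.

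The lists below are read against all genes tested, of which 51.6% had a log2 fold change above 0 and 10.1% passed upward at the unadjusted limits, or 4.81% without sh-NC replicate 2 and 3.84% with GC and length trends removed. Among the other PARP family genes, 10 of 12 were tested, 6 had a log2 fold change above 0, and 2 passed at the unadjusted limits upward and 0 downward (median 0.27). They were PARP15 and TNKS2, a tankyrase that builds poly(ADP-ribose) chains, at 1.10 with overlapping groups (edgeR adjusted p = 0.191). Neither passed without sh-NC replicate 2 or with GC and length trends removed. PARP1, the main DNA-damage PARP, had 6356, 4501 and 6794 normalized counts in the sh-NC libraries and 4904, 4986 and 5081 in shRBM10, with a log2 fold change of -0.24 (edgeR adjusted p = 0.526). TIPARP, an aryl hydrocarbon receptor target, had a log2 fold change of 0.97 without overlap (edgeR adjusted p = 0.163), but 0.37 with GC and length trends removed, and leaving out 1 library at a time gave 0.60 to 1.17.

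Of the genes that remove or cleave ADP-ribose, all 10 were tested, 8 were above 0, 3 passed upward and 0 downward (median 0.34), and 1 passed without sh-NC replicate 2 or with GC and length trends removed. MACROD2, a macrodomain hydrolase that takes off single ADP-ribose units, had 23.6, 12.3 and 31.6 normalized counts in the sh-NC libraries and 117, 102 and 67.2 in shRBM10. Its groups did not overlap, and its log2 fold change of 2.05 (SE 0.40, edgeR adjusted p = 0.108) was 1.70 without sh-NC replicate 2 and 1.44 with GC and length trends removed, where its edgeR adjusted p was 0.0299. PARG, the enzyme that degrades poly(ADP-ribose) chains, had a log2 fold change of 1.13 (edgeR adjusted p = 0.173). ENPP1, a phosphodiesterase that can cleave ADP-ribose, had 1.34 with overlapping groups (edgeR adjusted p = 0.170, at most 50 counts in any library). In PARG, library C (268) only just cleared sh-NC replicate 3 (263), and neither gene passed without sh-NC replicate 2. Of the other Deltex ligases 3 of 4 were tested and 0 passed in either direction, with a median of -0.24 that turned to 0.23 with GC and length trends removed.

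The list of ZC3HAV1 cofactors and RNA decay factors had all 13 genes tested, 7 above 0, 1 passing upward and 0 downward, with a median of 0.14 that turned to -0.039 without sh-NC replicate 2. The 1 was XRN1, the cytoplasmic 5′ to 3′ exonuclease, at a log2 fold change of 1.47 with overlapping groups (edgeR adjusted p = 0.193). It had 28.8 normalized counts in sh-NC replicate 2, 150 to 193 in the other sh-NC libraries and 158 in shRBM10 library C. Without sh-NC replicate 2 its log2 fold change was 0.93 and it no longer passed. TRIM25, the ubiquitin ligase that ZC3HAV1 needs for its antiviral activity, had 3462, 2543 and 3508 normalized counts in the sh-NC libraries and 2214, 1917 and 2516 in shRBM10. Every shRBM10 library was lower, by a log2 fold change of -0.52 (edgeR adjusted p = 0.207), which was -0.74 without sh-NC replicate 2 and -0.57 with GC and length trends removed (edgeR adjusted p = 0.0408). KHNYN, an endonuclease partner of ZC3HAV1, had 0.14 (edgeR adjusted p = 0.747) and turned to -0.19 without sh-NC replicate 2, and ZC3HAV1L, a shorter paralog, had 0.22 (edgeR adjusted p = 0.625). TNFRSF10D, a cellular transcript known to be repressed by ZC3HAV1, had 0.085 (edgeR adjusted p = 0.842) and took either sign over the alternatives.

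Upstream of the members, the interferon signalling list had 12 of 12 genes tested, 9 above 0, 1 passing upward and 0 downward (median 0.17). The 1 was JAK1, a receptor-bound kinase, with a log2 fold change of 1.06 (edgeR adjusted p = 0.169), which was 0.64 without sh-NC replicate 2 and so no longer passed. STAT2 had 642, 567 and 638 against 1041, 868 and 1144, a log2 fold change of 0.72 without overlap (edgeR adjusted p = 0.155), 0.59 without sh-NC replicate 2 and 0.89 with GC and length trends removed (edgeR adjusted p = 0.0219). IRF9, its DNA-binding partner, had 880, 1146 and 789 against 865, 1041 and 1124, a log2 fold change of 0.11 with overlapping groups (edgeR adjusted p = 0.783) that was 0.20 without sh-NC replicate 2 and 0.56 with GC and length trends removed (edgeR adjusted p = 0.0538).

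Of 9 interferon genes listed, 4 were tested: IFNB1, IFNL1, IFNL2 and IFNL3. All 4 were above 0 (median 0.55) and 0 passed in either direction, while with GC and length trends removed the median was 0.97 and IFNL2 and IFNL3 passed. IFNB1 had 62.6, 147 and 62.3 normalized counts in the sh-NC libraries and 132, 123 and 117 in shRBM10, so the groups overlapped through sh-NC replicate 2 alone (log2 fold change 0.47, edgeR adjusted p = 0.431, and 0.91 without that replicate). IFNL2 (0.63, edgeR adjusted p = 0.216) and IFNL3 (0.66, edgeR adjusted p = 0.208) were higher in every shRBM10 library, and they stood at 1.18 (edgeR adjusted p = 0.0485) and 1.24 (edgeR adjusted p = 0.0408) with those trends removed. They are near-identical copies, so their counts cannot be told apart with certainty. On the supply of NAD+, the substrate of all catalytic PARPs, 7 of 9 synthesis genes were tested, 4 were above 0, 2 passed upward and 0 downward (median 0.36). NAMPT, the rate-limiting enzyme of NAD+ salvage, had 3997, 2220 and 3987 normalized counts in the sh-NC libraries and 11756, 10496 and 5252 in shRBM10. It lay higher in every shRBM10 library, with a log2 fold change of 1.43 (edgeR adjusted p = 0.144) that was 1.11 without sh-NC replicate 2 and 0.85 with GC and length trends removed. QPRT, which makes NAD+ precursors from tryptophan, had 59.9, 80.8 and 42.4 against 143, 149 and 167, a log2 fold change of 1.33 (edgeR adjusted p = 0.137) that was 1.5 without replicate 2 and 1.92 with those trends removed (edgeR adjusted p = 0.0134). No gene of these lists was called at the edgeR adjusted p and fold limits with all 6 libraries and no trend removed, and 4 were called with GC and length trends removed: MACROD2, IFNL2, IFNL3 and QPRT.

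**Figure D5:**
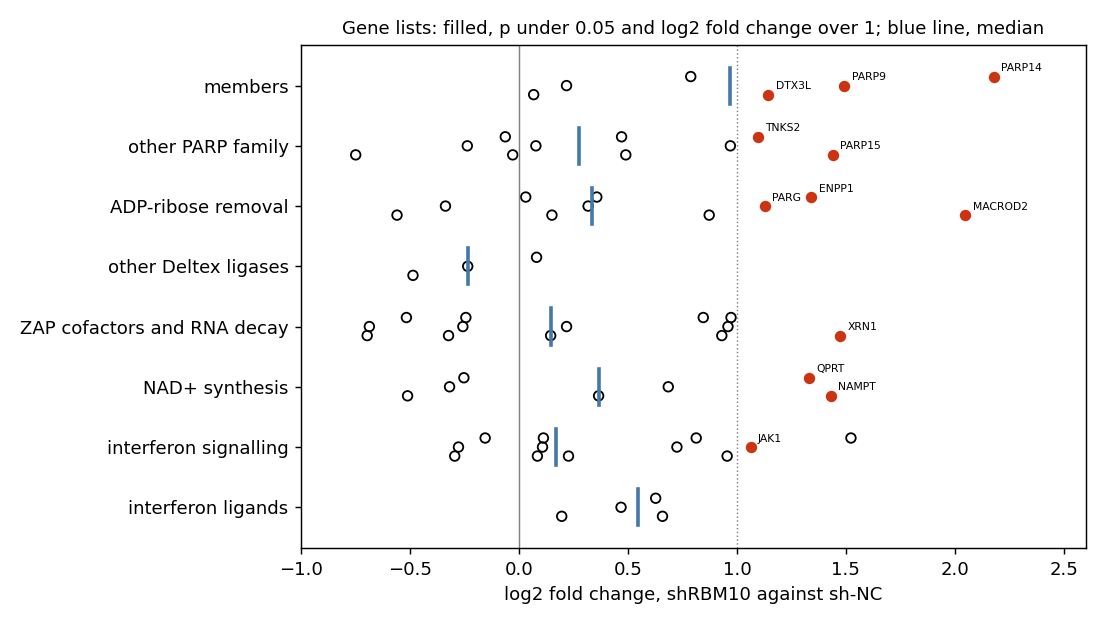
Log2 fold change (shRBM10 against sh-NC) of each tested gene of the members and of 7 gene lists, with filled red points for an edgeR p under 0.05 and a log2 fold change over 1 and blue lines at the medians. The members' median of 0.97 lies to the right of the other medians in this fit, but with GC and length trends removed it was 0.65 against 0.97 for the interferon ligands, and without sh-NC replicate 2 it was 0.55 against 0.65.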

How the data were processed

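RNA-seq of PC9 cells (3 sh-NC and 3 shRBM10 libraries) was sequenced by BGI-Tech. The authors deposited estimated counts per gene (16306 genes) and per RefSeq transcript (76563 transcripts), beside FPKM, TPM and normalized counts. Only the deposited estimated counts were used, and the 18 columns of other measures and the 8 group-mean columns of each table were not used here. The build is hg38 per the submitters' processing notes, and the aligner, the counter and the RNA-seq test are not given in the sources used here. Whole numbers made up 87.5% of the deposited gene values and 41.1% of the transcript values. The labels describe 2 library kits without assigning them to samples. The members and gene lists were chosen with earlier results of these data known.

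Counts were rounded, filtered with filterByExpr (12620 genes), scaled by TMM and fitted without covariates in edgeR 4.0.16 by its quasi-likelihood test (with limma 3.58.1 and R 4.3.3). P-values were adjusted by Benjamini-Hochberg over all genes tested, and both groups have 3 libraries, so an exact permutation p cannot fall below 0.1. Standard errors are the log2 fold change divided by the square root of F. Transcript usage was tested with diffSpliceDGE. The code was tested on simulated counts first. Alternatives were DESeq2 1.42.0 on all genes, limma-voom, RLE, upper quartile and library-size scaling, filters of at least 1 count in all libraries together and of at least 10 in every library, leaving out each library, and offsets that remove each library's spline trend (5 degrees of freedom) on GC content, or on GC content and length. Removing both trends without sh-NC replicate 2, and counting the unmatched ZC3HAV1 transcript as long, were added after seeing the data. GC content was found for 12570 of 12620 genes (99.6%). Coordinates and transcript lengths are from GENCODE release 29 on GRCh38 and promoters from RefSeq. Genes named are the members, RBM10, the 5 tested genes nearest to PARP9 by profile, every list gene past the unadjusted limits, and PARP1, STAT2, IRF9, TRIM25, KHNYN, ZC3HAV1L, TNFRSF10D, TIPARP and NAMPT. Genes named outside this rule are marked where they appear or belong to a list count. Some items are not reported here.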

Additional observations from a re-analysis of the deposited data

How the results depend on the processing

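PARP9, DTX3L, PARP14, PARP10 and ZC3HAV1 kept a positive log2 fold change in all 16 alternatives run for each. PARP10 came nearest to 0 of these, at 0.0021 without library C (0.0021 to 0.31 over the libraries left out). With the GC trend removed PARP10 stood at 0.69. The number of members called by adjusted p was 2 (PARP9 and PARP14) with DESeq2, where 544 of 12493 genes were called in either direction. That number was 2 with the GC and length trends removed, where 233 of 12620 genes were called. With those trends removed and sh-NC replicate 2 left out it was 2, where 267 of 12795 genes were called. It was 0 with all libraries in edgeR, where 2 of 12620 genes were called, and 0 in the other alternatives. The members' median log2 fold change ran from 0.55 (without sh-NC replicate 2) to 1.17 over the fits that each left out 1 library, and was 0.46 with both trends removed and replicate 2 left out. With transcripts of at least 10 counts in every library, 0 of the 3 members still testable passed for transcript usage, because the PARP9 transcript concerned was no longer tested. Among values near 0, the log2 fold change of PARP12 was -0.082 without library C (-0.082 to 0.13 over the libraries left out), KHNYN was -0.19 without sh-NC replicate 2 (-0.19 to 0.30), and IRF9 was -0.0056 without sh-NC replicate 3 and -0.012 without library C (-0.012 to 0.21), but 0.45 with the GC trend removed and 0.56 with both trends removed. TNFRSF10D was -0.058 without sh-NC replicate 2 (-0.058 to 0.12), -0.025 with the GC trend removed, -0.058 with both trends removed and -0.16 with replicate 2 also left out. The cause of these changes was not tested. Scaling by library size alone moved the median of all genes from 0.027 to 0.16. Counts of genes called over the whole table ran from 0 to 544 (DESeq2). No paired analysis was possible because the columns of shRBM10 libraries B and C carry no replicate number. With 197 and 95 counts in sh-NC replicate 2, DTX3L and PARP14 rest on the thinnest sampling among the members.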
